A study of Homo sapiens with 6 samples.

Results

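Natural antisense lncRNAs, long RNAs transcribed from the strand opposite a protein-coding gene, were followed in H460 cells, a line of human non-small cell lung cancer, with and without 7 Gy of radiation. Members were the autosomal genes whose platform symbol ends in -AS and a number, PAPPA-AS1 left out, with a mean log2 signal of 6 or more over the control arrays. A feature here is a transcript cluster, a group of probes for 1 locus. For a symbol with several features, the brightest by the mean over all 6 arrays, irradiated ones included, stood for it. This left 112 of 719 such symbols, out of 22465 genes that had a feature with 1 symbol. Members were chosen by the control signal, so that level is given as a description, and it ran from 6.0009 to 8.19 with a median of 6.43. WWTR1-AS1 (6.0009), NOP14-AS1 (6.03) and HOXB-AS3 (6.03) lay just inside the threshold, and MMP24-AS1 (5.9984), PSMG3-AS1 (5.95) and ADGRL1-AS1 (5.95) just outside it. Signals of different features are not on a common scale, so levels are not compared between genes, and an order by signal only says which features were bright.

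The samples were 3 arrays of untreated H460 cells and 3 arrays of H460 cells after 7 Gy, all from total RNA on the Human Transcriptome Array 2.0. The titles call the replicates biological. Nothing in the labels says whether they came from separate cultures, so p-values measure the spread between these arrays. The labels state no time between irradiation and extraction. Lower RNA in every cell and fewer cells with the RNA cannot be told apart in such bulk samples.

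Antisense lncRNAs can lie head to head with the sense gene and start from the same promoter region, overlap its end, or sit inside it. Some act on the sense gene in cis, by transcription through it, by chromatin marks or by pairing with its mRNA, and others act elsewhere or have no known role. Many are nuclear and short-lived, and the nuclear RNA exosome is a main enzyme complex of their decay. In p53-proficient cells such as H460, radiation activates p53, which raises targets such as MDM2 and CDKN1A and lowers many cell cycle genes.

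Arrays differed little in scale, with medians of 4.65 to 4.70, and correlated at 0.9966 to 0.9975 among control arrays, 0.9955 to 0.9964 among irradiated arrays and 0.9938 to 0.9948 across both. The p53 targets MDM2 and CDKN1A rose by 2.06 (SE 0.06) and 0.77 (SE 0.08) on the log2 scale, and GDF15 by 2.93 (SE 0.05), all in limma at adjusted p from 4.74e-06 to 0.00345. In controls, keratins of epithelial cells read 10.86 (KRT8), 10.08 (KRT18) and 10.15 (KRT19), and EPCAM and CDH1, also epithelial, read 4.04 and 5.17. The lung lineage genes NKX2-1 and SFTPB were at 5.90 and 6.03. Of 4 measured fibroblast markers, levels ran from 2.86 to 6.47, and of 4 blood cell markers from 2.86 to 8.92, the highest being CD68. No fibroblast, blood, lung or epithelial marker passed the test.

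RefSeq promoter sequences (GRCh38.p14, windows of 300 bases around a start site) show where transcription of these loci begins. The first 4 are from the only loci, apart from HNRNPU, where the lncRNA and a measured sense gene were both called after irradiation. They are TMPO on chr12:98515323-98515622 (plus strand) with TMPO-AS1 on chr12:98516177-98516476 (minus strand), and SLC9A3 on chr5:524400-524699 (minus strand) with SLC9A3-AS1 on chr5:472986-473285 (plus strand). The next 2 belong to lncRNAs that fell while the sense gene was not called, EMC3-AS1 on chr3:9986643-9986942 (plus strand) and CFAP58-DT, the present name of CCDC147-AS1, on chr10:104353526-104353825 (minus strand). Capitals mark matches on either strand to the motifs searched.
TMPO: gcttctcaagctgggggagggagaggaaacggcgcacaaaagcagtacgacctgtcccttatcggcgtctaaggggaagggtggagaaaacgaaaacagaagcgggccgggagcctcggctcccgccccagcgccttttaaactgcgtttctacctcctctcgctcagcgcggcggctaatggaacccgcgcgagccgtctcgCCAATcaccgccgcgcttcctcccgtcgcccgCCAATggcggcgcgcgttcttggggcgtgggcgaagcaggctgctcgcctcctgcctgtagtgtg
TMPO-AS1: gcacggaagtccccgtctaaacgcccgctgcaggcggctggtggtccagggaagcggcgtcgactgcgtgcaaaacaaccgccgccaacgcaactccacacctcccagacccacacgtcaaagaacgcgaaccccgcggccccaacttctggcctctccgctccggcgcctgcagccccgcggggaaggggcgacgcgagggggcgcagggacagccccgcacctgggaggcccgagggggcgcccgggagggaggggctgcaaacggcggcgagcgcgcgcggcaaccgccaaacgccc
SLC9A3: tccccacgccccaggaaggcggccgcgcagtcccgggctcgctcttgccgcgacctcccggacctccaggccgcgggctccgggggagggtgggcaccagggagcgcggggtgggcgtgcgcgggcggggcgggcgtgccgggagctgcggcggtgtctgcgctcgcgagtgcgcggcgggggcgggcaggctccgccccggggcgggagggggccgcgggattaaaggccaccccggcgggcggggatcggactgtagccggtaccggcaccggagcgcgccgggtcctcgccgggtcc
SLC9A3-AS1: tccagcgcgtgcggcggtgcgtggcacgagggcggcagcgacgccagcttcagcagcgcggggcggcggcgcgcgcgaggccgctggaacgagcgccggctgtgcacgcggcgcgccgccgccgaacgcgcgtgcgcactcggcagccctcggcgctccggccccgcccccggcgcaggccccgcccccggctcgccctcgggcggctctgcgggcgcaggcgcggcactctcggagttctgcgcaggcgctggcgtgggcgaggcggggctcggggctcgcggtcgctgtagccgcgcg
EMC3-AS1: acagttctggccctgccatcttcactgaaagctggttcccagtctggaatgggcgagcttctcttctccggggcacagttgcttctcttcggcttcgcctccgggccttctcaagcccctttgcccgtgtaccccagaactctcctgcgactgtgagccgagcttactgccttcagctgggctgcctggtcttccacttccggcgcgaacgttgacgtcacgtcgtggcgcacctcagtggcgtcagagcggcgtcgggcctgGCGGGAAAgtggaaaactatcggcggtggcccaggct
CFAP58-DT: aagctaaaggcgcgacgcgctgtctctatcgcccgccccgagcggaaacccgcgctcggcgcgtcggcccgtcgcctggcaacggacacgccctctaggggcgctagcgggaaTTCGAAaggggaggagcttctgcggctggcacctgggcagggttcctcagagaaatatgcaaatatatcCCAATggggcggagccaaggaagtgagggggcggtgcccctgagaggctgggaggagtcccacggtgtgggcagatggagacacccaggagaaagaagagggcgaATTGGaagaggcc

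The motifs searched were the E2F motif (TTTCCCGC, TTTCGCGC, TTTGCCGC or TTTGGCGC), the CHR element of late cell cycle genes (TTTGAA or TTCGAA), the CCAAT box (CCAAT) and the p53 half-site by its usual consensus, each on both strands. The TMPO window held 2 CCAAT boxes, and the windows of TMPO-AS1, SLC9A3, SLC9A3-AS1 and PRRT3-AS1 held no match. EMC3-AS1 held 1 E2F match, and CFAP58-DT held 1 CHR match and 2 CCAAT matches. Of 35116 promoters in the table, 3.31% held an E2F match, 16.4% a CHR match, 34.6% a CCAAT box and 6.63% a p53 half-site. Of 90 members with a promoter in the table, 5 held an E2F match, 7 a CHR match, 24 a CCAAT box and 7 a p53 half-site. These windows were GC-rich, with a median of 65.7% over the 90 members against 58.7% over all promoters. Each member was read from its first entry, while values over all promoters count every entry, so the sets are not matched. GAS6-AS1 had no entry. A match is a run of letters, and none was tested as a binding site.

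Of the 112 antisense lncRNAs, 7 passed the test after irradiation, and 87 differed by less than 0.1 on the log2 scale. GAS6-AS1 and SLC9A3-AS1 rose, and HNRNPU-AS1, CCDC147-AS1, TMPO-AS1, PRRT3-AS1 and EMC3-AS1 fell. The 7 were 6.25% of the 112, against 5.05% of all 67528 transcript clusters and 13.7% of the 19213 transcript clusters that also had a control mean of 6 or more (limma, Benjamini-Hochberg adjusted p under 0.05 over all transcript clusters). Called higher were 2.25% of all transcript clusters and 5.11% of those at 6 or more, and called lower 2.8% and 8.61%. The count of called members lay near the share over all transcript clusters and under the share at like signal, and neither gap was tested. The median log2 difference was -0.0027, beside 0.03 over all transcript clusters and -0.01 over those with a control mean of 6 or more.

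Of the 112, 55 had a positive and 57 a negative difference, 87 lay within 0.1 of no change and 10 differed by more than 0.2 on the log2 scale. The groups of arrays did not overlap for 23 members, 10 higher and 13 lower, which is 20.5% against 24.6% of all transcript clusters and 41.1% of those at 6 or more. With an unadjusted p under 0.05 in limma there were 14 of the 112 members, 7 of them not called, beside 18.4% of all transcript clusters. That share was not taken for the transcript clusters at 6 or more. A gene that is high in controls passes a control threshold more readily, so membership was also set in other ways. By the mean over all 6 arrays, 7 of 115 were called, the same 7 genes. By the irradiated mean, 6 of 114 were called, 2 higher and 4 lower. CCDC147-AS1, with means of 6.36 in controls and 5.76 after irradiation, was not among them.

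**Figure D1:**
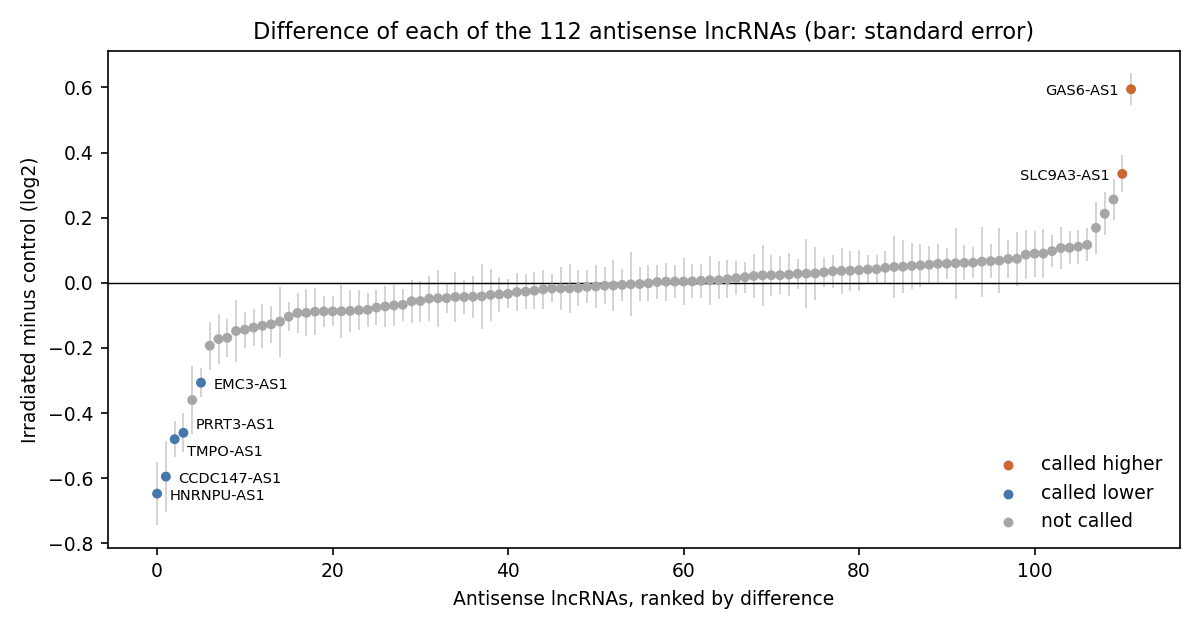
Irradiated minus control log2 difference of each of the 112 antisense lncRNAs in rank order, with the standard error of the limma fit as bars. Most points lie within 0.1 of no change, 5 called members (blue) lie at the low end and 2 (orange) at the high end.

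GAS6-AS1, antisense to GAS6, a ligand of the TAM receptor kinases such as AXL, was the clearest rise. Control arrays read 6.64, 6.56 and 6.54, and irradiated arrays 7.17, 7.21 and 7.14. The groups were far apart, with means of 6.58 ± 0.05 and 7.18 ± 0.04 (SD, n = 3), a 1.51-fold increase (log2 difference 0.59, SE 0.05, adjusted p in limma = 0.00115). GAS6 itself read 7.74, 7.72 and 7.64 in controls and 7.68, 7.64 and 7.68 after irradiation, with overlapping groups. The second GAS6-AS1 feature, with a control mean of 6.56, differed by 0.09 (SE 0.06) and was not called, so the 2 features of this gene disagreed. The neighbours GRK1 (-0.04, SE 0.04) and RASA3 (-0.12, SE 0.04) were not called. GAS6-AS1 kept its call without any 1 array (adjusted p in limma up to 0.00994).

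SLC9A3-AS1 lies inside SLC9A3, the gene of the sodium/proton exchanger NHE3, and both rose. SLC9A3-AS1 read 7.43, 7.50 and 7.33 in controls and 7.72, 7.79 and 7.75 after irradiation, a 1.26-fold increase (log2 difference 0.33, SE 0.06, adjusted p in limma = 0.019). SLC9A3 read 7.46, 7.45 and 7.38 in controls and 7.90, 7.88 and 7.83 after irradiation, a 1.35-fold increase (0.44, SE 0.05). Neither RNA had overlapping groups. CEP72, a centrosomal protein gene and the next protein-coding neighbour on the right, also rose, by 0.37 (SE 0.06, adjusted p in limma = 0.0132). EXOC3, the neighbour on the left, differed by 0.19 (SE 0.04) and was not called. SLC9A3-AS1 lost its call without control 1, control 3, irradiated 2 or irradiated 3 (adjusted p in limma up to 0.0785), and SLC9A3 kept it in all 6 such fits.

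TMPO-AS1 overlaps the start of TMPO, which encodes the LAP2 proteins of the nuclear lamina, and both fell. TMPO-AS1 read 7.76, 7.71 and 7.74 in controls and 7.36, 7.201 and 7.21 after irradiation, a 1.4-fold decrease (log2 difference -0.48, SE 0.06, adjusted p in limma = 0.00441). TMPO fell from 8.94, 8.91 and 9.03 to 8.16, 8.30 and 8.28, a 1.64-fold decrease (-0.71, SE 0.06). For both RNAs every irradiated array was below every control array. The outer neighbours NEDD1 (0.09, SE 0.06) and SLC25A3 (-0.04, SE 0.04) were not called. TMPO-AS1 and TMPO each kept the call without any 1 array.

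PRRT3-AS1 overlaps the start of PRRT3, a proline-rich transmembrane protein gene. PRRT3-AS1 read 8.15, 8.13 and 8.27 in controls and 7.73, 7.79 and 7.65 after irradiation, a 1.38-fold decrease (log2 difference -0.46, SE 0.06, adjusted p in limma = 0.00658). PRRT3 gave 6.17 in both groups, a difference of 0.01 (SE 0.06). The next locus on the same chromosome held another antisense lncRNA that fell. EMC3-AS1 lies inside EMC3, a subunit of the complex that inserts proteins into the endoplasmic reticulum membrane. It read 6.88, 6.80 and 6.86 in controls and 6.53, 6.56 and 6.53 after irradiation, a 1.24-fold decrease (log2 difference -0.31, SE 0.04, adjusted p in limma = 0.0104). EMC3 differed by -0.03 (SE 0.05), and CRELD1, the protein-coding gene on the other side of PRRT3, by 0.16 (SE 0.05), neither of them called. EMC3-AS1 lost its call without control 1 (adjusted p in limma = 0.0579), and PRRT3-AS1 kept its call without any 1 array.

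CCDC147-AS1, now CFAP58-DT, lies inside CFAP58, a gene of cilia and flagella, by the RefSeq gene intervals. Its present name is that of a divergent transcript, so name and intervals give different layouts. CCDC147-AS1 read 6.397, 6.15 and 6.53 in controls and 5.79, 5.61 and 5.89 after irradiation, a 1.51-fold decrease (log2 difference -0.60, SE 0.11, adjusted p in limma = 0.0258). The lowest control array was above the highest irradiated array, with SDs of 0.19 and 0.14 (n = 3). CFAP58 was dim, with means of 4.54 and 4.63. ITPRIP, the next protein-coding gene on the left, which encodes a protein that interacts with the inositol trisphosphate receptor, rose by 0.34 (SE 0.06, adjusted p in limma = 0.0197). CCDC147-AS1 lost its call without control 1, control 3, irradiated 1 or irradiated 2 (adjusted p in limma up to 0.105).

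The largest fall among the 112 was that of the feature with the symbol HNRNPU-AS1. Control arrays read 8.19, 8.13 and 7.99 and irradiated arrays 7.27, 7.48 and 7.62, a 1.57-fold decrease (log2 difference -0.65, SE 0.10, adjusted p in limma = 0.0115). The RefSeq table now lists this symbol as a synonym of HNRNPU itself, which encodes an RNA-binding protein of the nuclear scaffold, so whether the feature measures an antisense RNA is not settled. The main HNRNPU feature fell from 9.80, 9.80 and 9.84 to 9.49, 9.59 and 9.64 (-0.24, SE 0.05), at an adjusted p in limma of 0.0499 that was lost without any 1 array. HNRNPU-AS1 lost its call without control 1 or control 2 (adjusted p in limma up to 0.0561).

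**Figure D2:**
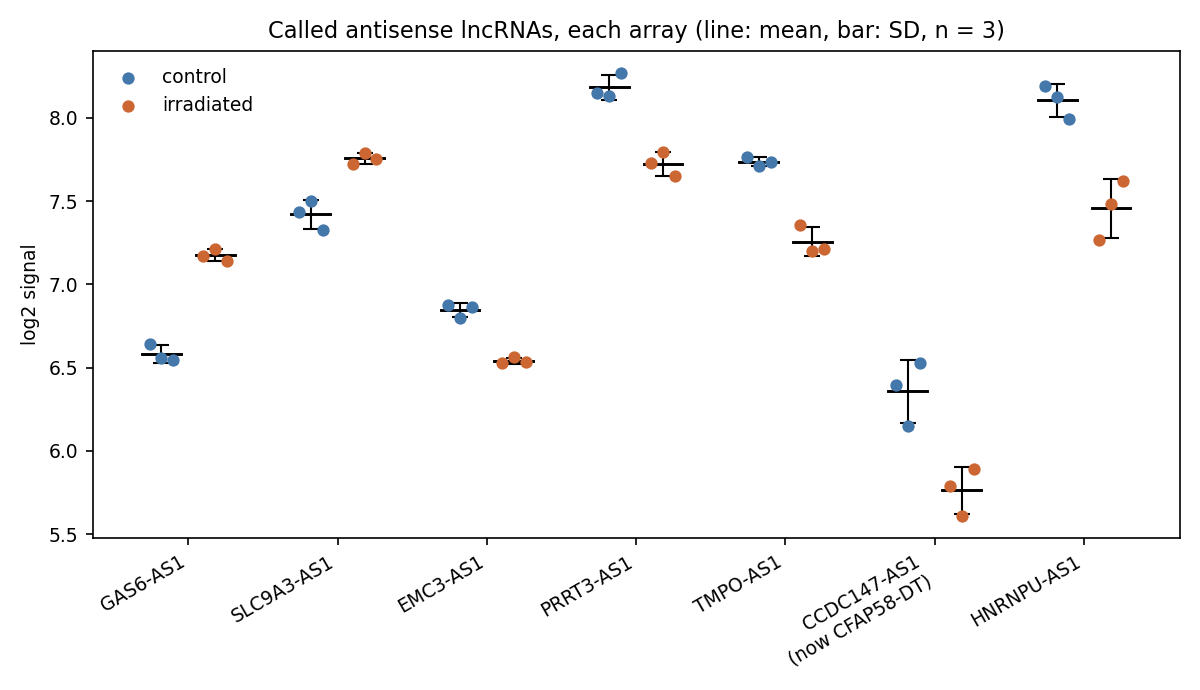
Log2 signal of the 7 called antisense lncRNAs on each control (blue) and irradiated (orange) array, with the group mean as a line and the SD as a bar (n = 3). GAS6-AS1 and SLC9A3-AS1 are higher on every irradiated array and the other 5 are lower, with no overlap between groups.

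The lncRNAs with the highest control signals were OIP5-AS1, PRRT3-AS1, EPB41L4A-AS1, PITPNA-AS1, HNRNPU-AS1 and UNC5B-AS1. OIP5-AS1, known as cyrano and for its pairing with the microRNA miR-7, read 8.23, 8.15 and 8.19 in controls and 7.997, 8.002 and 8.15 after irradiation (log2 difference -0.14, SE 0.06). Its groups overlapped and it did not pass (adjusted p in limma = 0.268). EPB41L4A-AS1 differed by -0.02 (SE 0.06), PITPNA-AS1 by 0.07 (SE 0.08) and UNC5B-AS1 by 0.09 (SE 0.08), all with overlapping groups. The 105 members without a call ran from -0.36 for URB1-AS1 to 0.26 for RASSF8-AS1. PCNA-AS1, antisense to the gene of the replication clamp and chosen after its value was seen, differed by -0.17 (SE 0.06, adjusted p in limma = 0.178), and its irradiated arrays were all below the controls. Of the 4 members with a second feature, GNAS-AS1, also named after its value was seen, had a dimmer one that was called lower (-0.28, SE 0.055), while its brighter one differed by 0.09 (SE 0.07).

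A sense gene with a feature of its own was measured for 99 of the 112. For 7 the sense symbol stood only on features with several symbols, for 3 no feature carried it, and for 3 (of the HOXB and HOXC clusters) no single sense gene bears the name. Of the 99 sense genes, 12 were called (12.1%), 7 higher and 5 lower. Called were 5.05% of all transcript clusters and 13.7% of those with a control mean of 6 or more. The sense genes were not chosen by signal, so neither share is a matched comparison. The labels do not say whether the labelling kept the strand, so signal from overlapping RNAs of both strands cannot be told apart by the values alone. Both RNAs were called in 3 loci (TMPO, SLC9A3 and HNRNPU), each in the same direction. At HNRNPU the antisense symbol is now a synonym of the sense gene, so the 2 features there may not measure separate RNAs. The lncRNA alone was called in 4, the sense gene alone in 9 and neither in 83. The direction of the difference was the same in 53 of 99 pairs (53.5%). Across the 99 pairs Pearson's r was 0.32 and Spearman's rho 0.19, over loci measured on the same 6 arrays. Without the 3 loci where both were called r was 0.12. Those 3 were left out by their calls and each had a shared direction, so a lower r follows from that choice. The median absolute log2 difference was 0.05 for the lncRNAs and 0.08 for the sense genes. Of the sense genes, 8 had a control mean under 5, where a change can be understated.

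**Figure D3:**
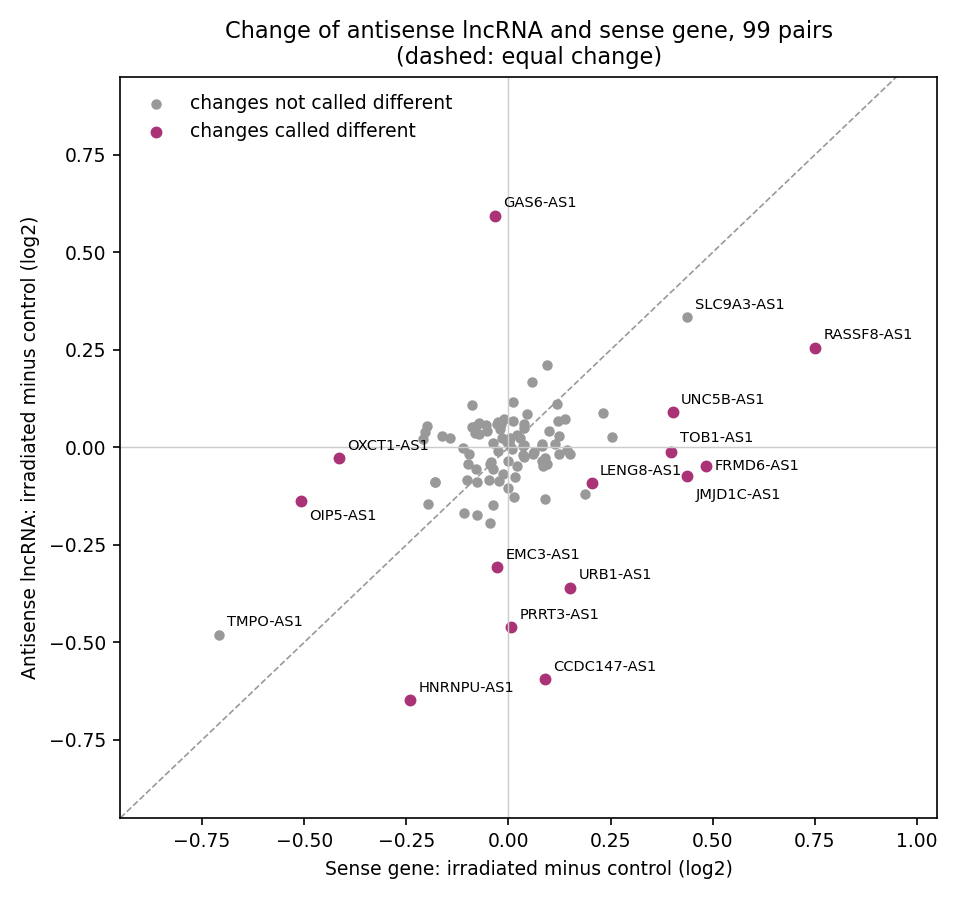
Log2 difference (irradiated minus control) of each antisense lncRNA against that of its sense gene, for 99 pairs, with equal change as a dashed line. Pairs whose changes were called different (purple, 14 pairs) lie either near the vertical zero line, where only the lncRNA moved, or near the horizontal one, where only the sense gene did, with HNRNPU-AS1, RASSF8-AS1, URB1-AS1, LENG8-AS1 and OIP5-AS1 between.

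Whether an lncRNA and its sense gene changed unequally was tested on the within-array difference between both, in a limma fit over all 646 antisense-sense pairs of any brightness. The changes differed in 14 of the 99 member pairs (14.1%), against 9.44% of all 646 pairs. The lncRNA's change was above the sense gene's in 3 pairs and below it in 11, while over all pairs the shares were 4.8% and 4.64%. The 14 pairs comprised 4 where the lncRNA alone was called, 7 where the sense gene alone was, 1 with both and 2 with neither. The test compares 2 features, and features can report a change unequally, as those of GAS6-AS1 did (0.59 and 0.09). A call therefore cannot tell unequal change of the RNAs from unequal response of their features, and this was not tested.

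The 4 loci with a called lncRNA and an uncalled sense gene were GAS6, CFAP58, PRRT3 and EMC3. The lncRNA's change minus that of the sense gene was 0.63 (SE 0.07, adjusted p in limma = 0.000146) for GAS6-AS1, the largest excess among the 99. That value rests on the brighter of its 2 features. The other GAS6-AS1 feature differed by only 0.09 (SE 0.06) and was not called. The difference in change was -0.68 (SE 0.095, adjusted p in limma = 0.000715) for CCDC147-AS1, -0.47 (SE 0.09) for PRRT3-AS1 and -0.28 (SE 0.07) for EMC3-AS1. The difference at EMC3 was lost without any 1 array except irradiated 1 (adjusted p in limma up to 0.0553). HNRNPU-AS1 fell more than HNRNPU, by -0.41 (SE 0.08).

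In 7 of the 14 pairs the sense gene was called and the lncRNA was not. RASSF8, a Ras-association family gene, rose from 7.80, 7.76 and 7.89 to 8.53, 8.63 and 8.54, a 1.68-fold increase (log2 difference 0.75, SE 0.06, adjusted p in limma = 0.000777). RASSF8-AS1 read 6.18, 6.12 and 6.16 in controls and 6.29, 6.49 and 6.45 after irradiation (0.26, SE 0.06, adjusted p in limma = 0.0675), with no overlap between groups. The lncRNA's change was smaller by -0.50 (SE 0.07), though both differences were positive. RASSF8-AS1 passed without irradiated 1 (adjusted p in limma = 0.028).

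FRMD6, a FERM-domain gene linked to Hippo signalling, rose 1.4-fold (log2 difference 0.48, SE 0.05), while FRMD6-AS1 read 6.42, 6.36 and 6.23 in controls and 6.17, 6.46 and 6.24 after irradiation. JMJD1C, a jumonji-domain chromatin gene, rose 1.35-fold (0.44, SE 0.05), while JMJD1C-AS1 differed by -0.07 (SE 0.06). TOB1, an antiproliferative gene of the BTG/TOB family, rose 1.32-fold (0.40, SE 0.05), and TOB1-AS1 differed by -0.01 (SE 0.05). UNC5B, a netrin receptor gene known as a p53 target, rose 1.32-fold (0.40, SE 0.05), and UNC5B-AS1 differed by 0.09 (SE 0.08). The lncRNA groups overlapped in all 4 loci, and the sense gene groups in none. The difference in change at UNC5B was lost without control 1, control 2, irradiated 2 or irradiated 3 (adjusted p in limma up to 0.11).

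The other sense genes of this kind fell. OXCT1, an enzyme gene of ketone body use, fell 1.33-fold (log2 difference -0.42, SE 0.05), and OXCT1-AS1 differed by -0.03 (SE 0.05). OIP5, a subunit gene of the complex that prepares centromeres for CENP-A loading, fell 1.42-fold (-0.51, SE 0.08), more than OIP5-AS1 (difference in change 0.37, SE 0.07, adjusted p in limma = 0.00601). NUSAP1, a spindle protein gene on the other side of OIP5, fell by -0.55 (SE 0.06), and CHP1, the neighbour beyond OIP5-AS1, rose by 0.25 (SE 0.05). OIP5 lost its own call without control 1, control 3, irradiated 1 or irradiated 2 (adjusted p in limma up to 0.0742).

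In 2 loci neither RNA passed but their difference did. URB1-AS1 read 6.34, 6.35 and 6.66 in controls and 6.003, 6.23 and 6.04 after irradiation (log2 difference -0.36, SE 0.10). URB1, a ribosome biogenesis gene, read 7.48, 7.44 and 7.42 in controls and 7.61, 7.62 and 7.58 after irradiation (0.15, SE 0.04). The lncRNA was lower and the sense gene higher on every irradiated array, and the changes differed by -0.51 (SE 0.10, adjusted p in limma = 0.00551). LENG8-AS1 (-0.09, SE 0.07) and LENG8 (0.20, SE 0.06) differed in change by -0.30 (SE 0.07), which was lost without any 1 control array or irradiated 2 (adjusted p in limma up to 0.088).

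At TMPO and SLC9A3 the test did not separate the changes of both RNAs. The lncRNA's change minus the sense gene's was 0.23 at TMPO (95% interval 0.05 to 0.41, adjusted p in limma = 0.115) and -0.10 at SLC9A3 (95% interval -0.25 to 0.05, adjusted p in limma = 0.412). The intervals hold for each locus alone, without adjustment over the pairs, and neither shows that both RNAs changed alike. LPP and HDHD5, the other sense genes with a call, had differences of 0.23 (SE 0.05) and -0.20 (SE 0.04), both lost without any 1 array. LPP-AS2 and HDHD5-AS1 differed by 0.09 (SE 0.07) and 0.05 (SE 0.07) and were not called.

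**Figure D4:**
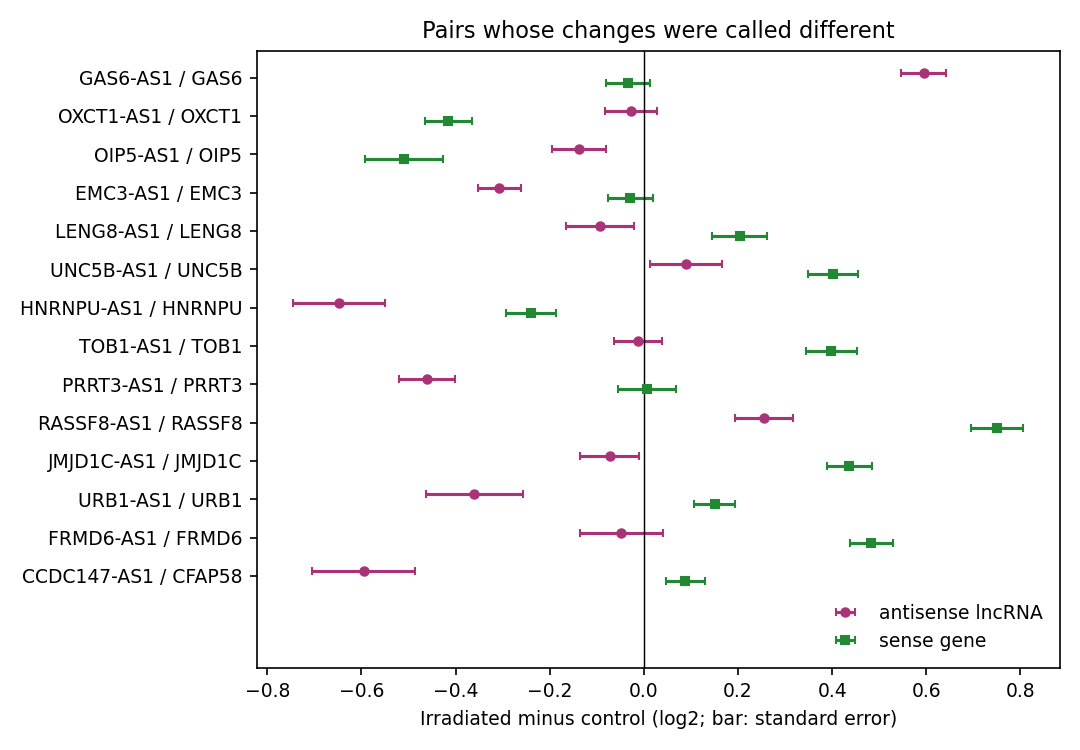
Log2 differences (irradiated minus control) with standard errors for the lncRNA (purple circles) and the sense gene (green squares) of the 14 pairs whose changes were called different. GAS6-AS1 at the top, by the brighter of its 2 features, rose while GAS6 was not called. CCDC147-AS1 at the bottom fell while CFAP58 was not called. In the RASSF8, FRMD6, JMJD1C, TOB1 and UNC5B loci the sense gene lies to the right.

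The loci differed in their layout in the RefSeq table (GRCh38.p14), which was also used for neighbours, promoter windows and current symbols. The genes overlapped at the 5-prime ends in 28 pairs, the lncRNA gene lay inside the sense gene in 20, the genes overlapped at the 3-prime ends in 13 and they were apart and divergent in 12. The direction of change was shared in 16 of the 28 pairs overlapping at the 5-prime ends, in 11 of the 20 with the lncRNA inside, in 2 of the 13 overlapping at the 3-prime ends and in 6 of the 12 divergent pairs. These counts were not tested. By the gene intervals, the called lncRNAs comprised 2 overlapping at the 5-prime ends (PRRT3-AS1, TMPO-AS1) and 3 inside the sense gene (SLC9A3-AS1, EMC3-AS1, CCDC147-AS1). For CCDC147-AS1 the present name is that of a divergent transcript, so its layout is not settled. The strand of GAS6-AS1 was not in the table used. For 22 pairs in all the strand was not in the table.

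Among antisense lncRNAs of any brightness, 7 of 720 rose and 6 fell (1.81%, beside 5.05% of all transcript clusters), with a median of 0.03. Those outside the 112 that passed numbered 6 of 608, 5 higher and 1 lower. PAPPA-AS1, left out of the members by the rule, had the largest difference (1.12, SE 0.10). In other lncRNA name classes, 7 of 521 LINC genes were called (6 higher, 1 lower), as were 1 of 77 divergent transcripts and 1 of 82 intronic transcripts (both higher). With a control mean of 6 or more, where 13.7% of all transcript clusters were called, 4 of 50 LINC genes (8%) and 1 of 8 intronic transcripts (12.5%) were called. Of 14 divergent transcripts at that level, 0 were called in limma, with limma-trend or in the unmoderated test, and 1 had an unadjusted p under 0.05. None of these shares was tested against another. LINC00467 rose by 0.41 (SE 0.05), LINC00845 by 0.36 (SE 0.07), LINC00473 by 0.32 (SE 0.06), BAIAP2-DT by 0.30 (SE 0.06) and CPS1-IT1 by 0.65 (SE 0.05). The 2 overlapping transcripts, C21orf91-OT1 and SLIRP-OT1, differed by -0.03 and -0.0033 and were not called.

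Of 28 measured genes of the RNA exosome, its cofactors and other RNA decay enzymes, 5 fell in limma and the others did not pass, with a median of -0.05. These 5 were among 21 with a control mean of 6 or more (23.8%), where 13.7% of all transcript clusters were called and 8.61% were called lower, and the gap was not tested. The largest falls were in core subunits of the exosome. EXOSC2 fell from 7.76 ± 0.02 to 7.25 ± 0.03 (SD, n = 3; log2 difference -0.51, SE 0.04, adjusted p in limma = 0.00131). EXOSC9 fell by 0.47 (SE 0.06) and EXOSC8 by 0.40 (SE 0.05) on the log2 scale. Beside these, the 112 antisense lncRNAs as a whole had a median difference of -0.0027, and the part of these decay genes in any result was not tested.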

How the data were processed

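The deposited values are log2 signals per feature and array. The sample descriptions name an RMA gene-level signal, while the submitters' processing notes name MAS5, so the summary method is not settled, and no label names the probe annotation's build. Per the labels, TRIzol was used for extraction and biotin as the label. Of 70523 features, the 67528 transcript clusters were fitted and 2995 other rows were left out. Symbols came from the platform annotation, and only features with 1 symbol were named.

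Groups followed the treatment label. Irradiated arrays were set against control arrays by two-sided moderated tests (limma 3.58.1, R 4.3.3, functions lmFit and eBayes), and p-values were adjusted by Benjamini-Hochberg across the transcript clusters, with calls under 0.05. Both groups enter with 3 arrays, and that number limits the precision. The control arrays that chose the members also enter their differences. Unequal change of the features of an lncRNA and its sense gene was tested on their within-array difference over 646 pairs. The scripts were tested on simulated data.

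The members and lists were chosen with earlier results of these data known. Named were all called members, the 6 brightest, the 3 on either side of the threshold, the 6 called pairs of largest difference, their sense genes and the leading genes of each list. The other called pairs and sense genes, the neighbours, the motifs and the second features were chosen after their values were seen. Of the 112 symbols, 108 are current in RefSeq (GRCh38.p14), and 109 have the biotype lncRNA. FAM83H-AS1 is now a protein-coding gene, LEPREL1-AS1 is now P3H2-AS1, and EHMT2-AS1 has values identical to those of unnamed features.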

Additional observations from a re-analysis of the deposited data

How the results depend on the processing

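Of the single differences examined under the alternatives, 456 kept direction and side of the threshold, 73 lost the call, 3 gained it and 11 changed sign, none of these 11 called in either fit. Sign changes on leaving out 1 array were in EPB41L4A-AS1 (-0.0667 to 0.0116), PITPNA-AS1 (-0.0117 to 0.1203), FRMD6-AS1 (-0.1321 to 0.0116), HOXB-AS3 (-0.0169 to 0.0433) and WWTR1-AS1 (-0.0331 to 0.0130). EPB41L4A-AS1 was also at 0.0060 with quantile normalization and HOXB-AS3 at -0.0142 with median centring. Leaving out 1 array gave 1559 to 2379 called transcript clusters (3411 with all arrays), 3 (without control 1) to 7 called members (7), 40 (without control 2) to 66 unequal pairs (61), 11 to 16 unequal member pairs (14), 48 to 57 pairs of shared direction (53) and member medians of -0.0263 (without control 3) to 0.0087 (without control 1), against -0.0027. The median was above 0 too with quantile normalization (0.0033) or membership by the irradiated (0.0037) or the overall mean (0.0034). Same-numbered arrays of both groups did not deviate together (correlations of -0.011, -0.073 and -0.039), so they share only a number. With the replicate number as a block, 1598 transcript clusters and 3 members were called. PRRT3-AS1 (adjusted p in limma = 0.0506), SLC9A3-AS1 (0.0589), EMC3-AS1 (0.0639) and HNRNPU-AS1 (0.0674) lost the call there, and 53 pairs, 14 of them members, were called unequal. A test without moderation called 4 members, 3 pairs in all and 1 member pair, GAS6-AS1. Median centring moved the member median to -0.0205. A control mean of 7 or more left 23 members, of which 4 were called (17.4%). The share of all transcript clusters called at that level was not taken, so this count has no comparison. The other settings left the counts within 1.5 times: the members called were 8 with limma-trend or the filter on dim features, both adding RASSF8-AS1, and 7 with quantile normalization. The causes were not tested. Signal over background cannot be given from these summarised values.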
